A study of Homo sapiens with 4 samples.

Results

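The proteasome genes were taken as all protein-coding genes whose symbol is PSM, a letter from A to F and a number. They came to 44 of the 58735 gene identifiers counted, and 42 of them were abundant enough to be tested. PSMB8, PSMB9, PSMB10, PSME1 and PSME2, the inducible genes known as the immunoproteasome set, were described apart from the other 39. RNA had been sequenced from a cell line given as A549 (lung adenocarcinoma, human) and as wild-type, stained for the adhesion molecule ICAM1 and separated by fluorescence-activated sorting into an ICAM1-high and an ICAM1-low subset. Each subset gave 2 libraries, and the labels name no treatment or time, and both subsets share the wild-type genotype.

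The proteasome is the protease that degrades ubiquitin-tagged proteins. Its barrel, the 20S core, stacks rings of alpha subunits, which gate the entrance, on rings of beta subunits, of which PSMB5, PSMB6 and PSMB7 carry the active sites. The 19S particle caps the barrel: its base unfolds substrates with a ring of ATPases, and its lid removes ubiquitin. In cells exposed to interferon, newly made cores take up PSMB8, PSMB9 and PSMB10 in place of PSMB5, PSMB6 and PSMB7, and PSME1 and PSME2 form the PA28 cap. These changes alter which peptides are made for display on class I molecules.

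Total counts ranged from 16272591 to 17638647 per library. Levels are given in CPM, counts per 1000000 counts of the library after TMM scaling, which assumes most genes are equal between subsets. On that scale ICAM1 itself was at 115 and 110.2 CPM in ICAM1-high and at 4.60 and 4.88 CPM in ICAM1-low, which checks the labels at the sorting marker only. The genes CDKN2A, CDKN2B and MTAP are deleted in A549, and they summed to 87.9 to 101 CPM in the ICAM1-high libraries and to 0.0639 to 0.521 CPM in ICAM1-low. At these genes the label A549 does not hold for the ICAM1-high libraries, and their part in the proteasome differences was not tested. The labels do not say whether replicate libraries are from different cultures, and p-values therefore reflect library spread, which may be technical. A gene was called, and is said to have risen or fallen, where edgeR's quasi-likelihood test gave a p under 0.05 after Benjamini-Hochberg adjustment. Among the 16250 genes with a test, 30.4% were called higher in ICAM1-high and 29.4% were called lower, which is 59.7% together. The share of all genes whose libraries did not overlap between subsets is not given. A lack of overlap below therefore describes the gene named only.

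Promoter sequences of the inducible genes are shown first because most of them carry a shared stretch. These genes were set apart as known to be induced by interferon, so a match to an interferon site is not independent of that choice. RefSeq windows (GRCh38.p14) of 300 bases, from 250 before to 50 after a transcription start, were matched by symbol for 39 of 44 members, with 6 windows for the 5 inducible genes and 41 for the others. Both strands were searched for the core of the interferon-stimulated response element (ISRE), written GAAANNGAAA, the sequence bound by interferon-activated factors. Capitals mark the matches, each stretch runs 5′ to 3′ on the gene's strand, and a match on the other strand reads TTTC first.
PSMB8 (chr6:32844028-32844137, minus strand): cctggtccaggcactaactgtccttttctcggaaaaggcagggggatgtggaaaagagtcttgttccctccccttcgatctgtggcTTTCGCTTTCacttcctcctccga
PSMB10 (chr16:67936831-67936940, minus strand): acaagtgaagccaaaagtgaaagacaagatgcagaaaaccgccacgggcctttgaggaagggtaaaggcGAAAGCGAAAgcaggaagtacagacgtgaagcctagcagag
PSME1 (chr14:24136104-24136213, plus strand): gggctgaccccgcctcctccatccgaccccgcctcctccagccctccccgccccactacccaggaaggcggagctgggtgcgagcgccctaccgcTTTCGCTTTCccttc
PSME2 (chr14:24146591-24146700, minus strand): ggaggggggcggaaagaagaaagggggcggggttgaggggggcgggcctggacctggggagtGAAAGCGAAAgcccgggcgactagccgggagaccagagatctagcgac
TAP1, the neighbour of PSMB9 (chr6:32853784-32853874, minus strand): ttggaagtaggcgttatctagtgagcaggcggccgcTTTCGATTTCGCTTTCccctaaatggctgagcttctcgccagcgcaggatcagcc
PSMB4, a member outside the inducible set (chr1:151399483-151399592, plus strand): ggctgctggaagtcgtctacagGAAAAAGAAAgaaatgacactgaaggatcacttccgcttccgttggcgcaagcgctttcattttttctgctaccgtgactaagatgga

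The ISRE core was present for 4 of the 5 inducible genes and for 2 of the 34 other members with a window, and 3.57% of all 35116 windows held it. All 4 carry the same 10 bases, GAAAGCGAAA on one strand or the other. That exact form, read from the PSMB10 window after it was seen, occurs in 35 of the 35116 windows (0.0997%) and in 0 of the 34 other members. It lies from 21 to 12 bases before the start in PSMB10, from 28 to 19 before it in PSME2, from 6 to 15 after it in PSME1, and from 4 before to 6 after the second listed start of PSMB8. PSMB9 had no match in its own window. Its start lies 488 bases from that of TAP1, which is transcribed in the opposite direction, and a pair of overlapping ISRE cores in the TAP1 window falls 354 to 369 bases before the PSMB9 start. PSMB4 and PSMA4, the other members with the core, hold other forms of it. The count depends on which start is used: with only the first listed window of each gene, the core was present for 3 of the 5 inducible genes, PSMB8 being without it, and in 3.65% of 27305 windows. The motifs and the use of all windows were chosen after the values were seen.

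The other motifs sought in the same windows were also short. The gamma-activated site TTCNNNGAA was in 7.66% of all windows, in PSMB8 alone of the inducible genes and in 7 of 34 others. The antioxidant response core TGACNNNGC, the type of site used by NFE2L1 to raise proteasome genes when proteasomes fail, was in 13.3% of windows, for 3 of 5 inducible genes (PSMB9, PSME1 and PSME2) and 10 of 34 others. The kappa B consensus was in 11.3% of windows, for 0 of 5 and 2 of 34. The TAP1 window with the ISRE cores near PSMB9 also held kappa B matches. They lie from 72 to 63 bases before the TAP1 start and from 23 to 32 after it. The only overlaps among matches in the members were of the ISRE core with its exact form and of a pair of kappa B matches in PSMA4. Genes with several windows have more chances of a match, and a match is a run of letters, not a measured site.

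All 5 inducible genes rose in ICAM1-high, against the 30.4% of all tested genes that were higher. PSMB9, PSMB8 and PSMB10 rose by at least 1.5-fold, a size that 17.5% of all genes reached upward, and the PA28 pair rose by less. The median log2 fold change (ICAM1-high minus ICAM1-low) was 1.01 for these 5, 0.012 for all genes tested and -0.027 for the 37 other members tested. Each of the 5 kept its call when any single library was left out.

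PSMB9 (ENSG00000240065, chromosome 6, 32844136 to 32859585, GRCh38), the inducible counterpart of the caspase-like subunit PSMB6, was at 18.2 and 18.8 CPM in the ICAM1-high libraries and at 5.75 and 4.82 CPM in ICAM1-low. Both ICAM1-high values were more than 3 times either ICAM1-low value. The log2 fold change of PSMB9 came to 1.80, its standard error (SE) being 0.14 (adjusted p = 2.58e-18). In bulk RNA, fewer cells with the transcript and less transcript per cell cannot be told apart, here or for any gene below. PSMB8 (ENSG00000204264, chromosome 6, 32840717 to 32844703), which replaces the chymotrypsin-like subunit PSMB5, was at 32.7 and 31.6 CPM against 12.9 and 14.5 CPM. The subsets did not overlap, and the log2 fold change was 1.24 (SE 0.10, adjusted p = 1.63e-17). The genes lie side by side in the major histocompatibility complex, with TAP1 between their starts.

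PSMB10 (ENSG00000205220, chromosome 16, 67934502 to 67937087), which replaces the trypsin-like subunit PSMB7, had the lowest level of the set per kb of exon and was at 6.16 and 5.98 CPM against 1.98 and 4.04 CPM. The ICAM1-low libraries differed from each other, with 31 and 62 counts, but both lay below ICAM1-high. Its log2 fold change of 1.01 (SE 0.23, adjusted p = 9.99e-05) was 0.58 without ICAM1-low replicate 1 (adjusted p = 0.0382) and 1.60 without ICAM1-low replicate 2. The size of its rise therefore rests on single libraries, while its direction and call do not.

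PSME1 (ENSG00000092010, chromosome 14, 24136158 to 24138967), PA28 alpha, was at 86.0 and 80.4 CPM against 67.7 and 65.4 CPM, which is 0.32 on the log2 scale (SE 0.06, adjusted p = 5.54e-06). PSME2 (ENSG00000100911, chromosome 14, 24143362 to 24147570), PA28 beta, was at 102 and 101 CPM against 73.8 and 75.8 CPM, which is 0.45 on the log2 scale (SE 0.06, adjusted p = 4.76e-10). Neither gene's subsets overlapped. Both rises lay within the range of the members outside the set, below those of PSMD3 (0.88), PSMD6 (0.47) and PSMA1 (0.46).

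**Figure D1:**
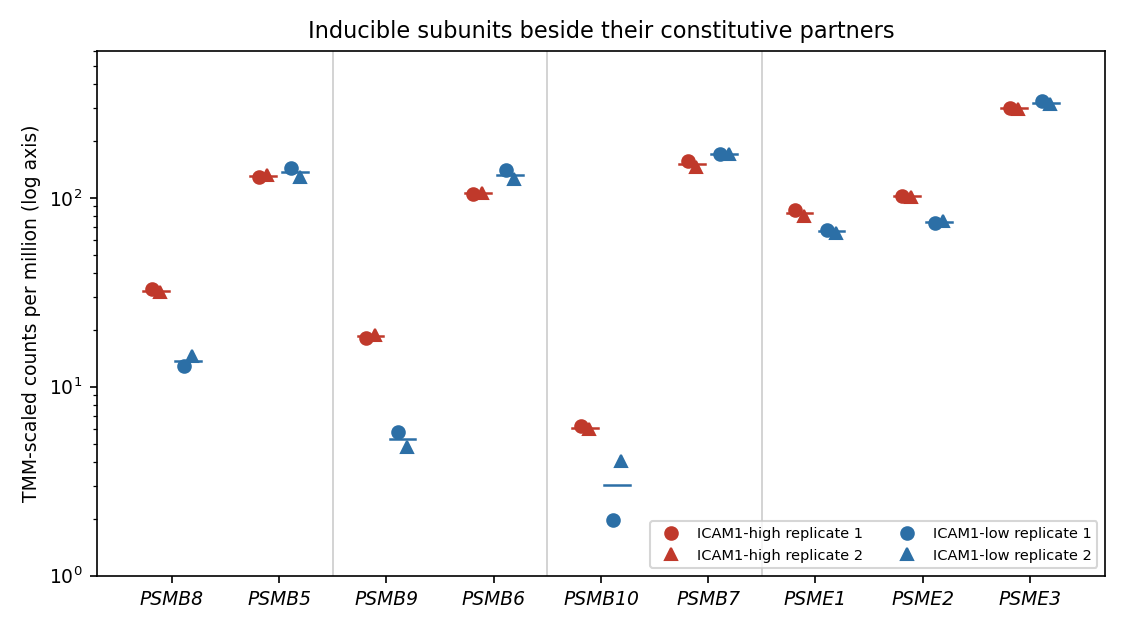
TMM-scaled CPM (log axis) of the inducible subunits and their constitutive partners in each library, red for ICAM1-high and blue for ICAM1-low, circles for replicate 1 and triangles for replicate 2, with a line at the mean of 2. PSMB8, PSMB9, PSMB10, PSME1 and PSME2 sit higher in both ICAM1-high libraries, while the values of PSMB5 overlap and those of PSMB6, PSMB7 and PSME3 sit slightly lower.

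The partners that these subunits replace did not rise. PSMB5 was at 130 and 132 CPM in ICAM1-high against 144 and 130 CPM in ICAM1-low, with overlapping libraries and a log2 fold change of -0.066 (adjusted p = 0.282). PSMB6 was at 105.3 and 105.5 CPM against 140 and 126 CPM, or -0.33 in log2 (SE 0.05, adjusted p = 2.41e-07). PSMB7 was at 156 and 145 CPM against 170 and 171 CPM, or -0.18 in log2 (SE 0.05, adjusted p = 0.00142). With scaling by library size alone, which raised the median of all genes by 0.17, PSMB6 was still called lower (-0.16), PSMB7 was at -0.0039 and not called, and PSMB5 turned to 0.11 without a call.

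Ratios within a library do not depend on scaling. Counts of PSMB9 were 17.2% and 17.8% of those of PSMB6 in ICAM1-high, and 4.12% and 3.83% in ICAM1-low, a 4.41-fold difference in the ratio. PSMB8 counts were 25.3% and 24.1% of PSMB5 counts against 8.97% and 11.2%, a 2.46-fold difference. PSMB10 counts were 3.95% and 4.12% of PSMB7 counts against 1.16% and 2.37%, a 2.43-fold difference, whose log2 value of 1.28 became 0.77 or 1.79 when a single ICAM1-low library was left out. In each of these 3 pairs both ICAM1-high ratios exceeded both ICAM1-low ratios, yet the constitutive partner also had the higher level per kb in all 4 libraries. Per kb of annotated exon, PSMB8 made up 12.9% and 12.4% of the PSMB8 and PSMB5 sum in ICAM1-high and 5.02% and 6.16% in ICAM1-low.

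PSME3, which forms a separate nuclear PA28 cap, served as the partner for PSME1 and PSME2. The PSME1 counts were 28.7% and 27.2% of those of PSME3 against 20.9% and 20.8%, and the PSME2 counts 34.3% and 34.2% against 22.7% and 24.1%. The ratios differed by 1.34-fold and 1.46-fold. For each of the 5 ratios a two-sided exact permutation test over the 4 libraries gave p = 0.333, the smallest that 2 against 2 allows, and 0.333 after adjustment over the 5.

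**Figure D2:**
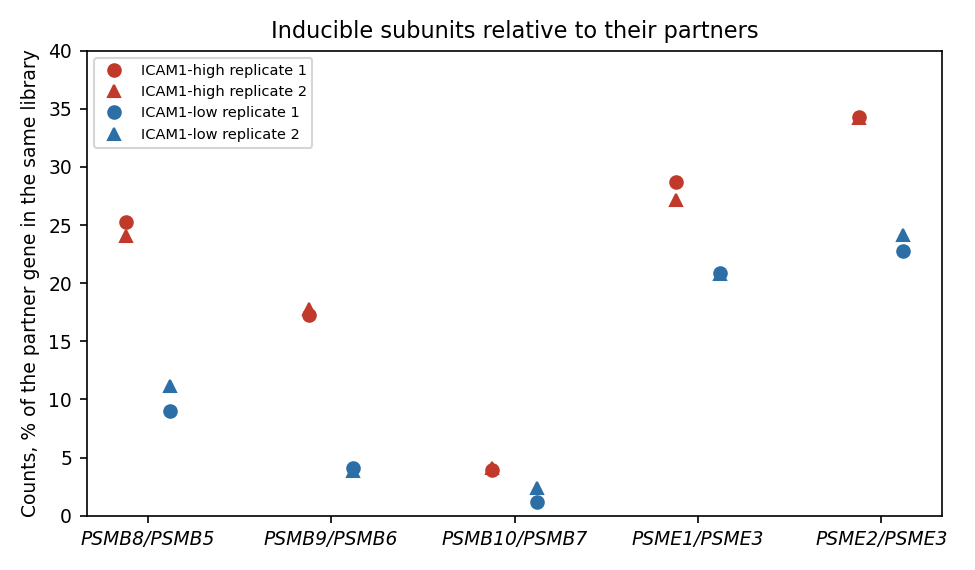
Counts of each inducible gene as a percentage of the counts of its partner in the same library (vertical axis), for 5 pairs, with ICAM1-high in red and ICAM1-low in blue. Both ICAM1-high points lie above both ICAM1-low points in every pair, by 4.41-fold on average for PSMB9 over PSMB6 and by 1.34-fold for PSME1 over PSME3.

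Among the other 39 members, 37 were tested, of which 11 rose, 13 fell and 13 did not pass. Those shares, 29.7% and 35.1%, lie near the 30.4% and 29.4% of all genes. Only PSMD3 changed by at least 1.5-fold upward and none downward, where 17.5% and 12.1% of all genes did; the largest fall, of PSMD14, was 1.47-fold. With scaling by library size alone, 19 of the 37 rose and 7 fell, where 6735 and 3124 of all 16250 genes tested did. All 11 that rose and 7 of the 13 that fell were called the same way under both scalings.

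**Figure D3:**
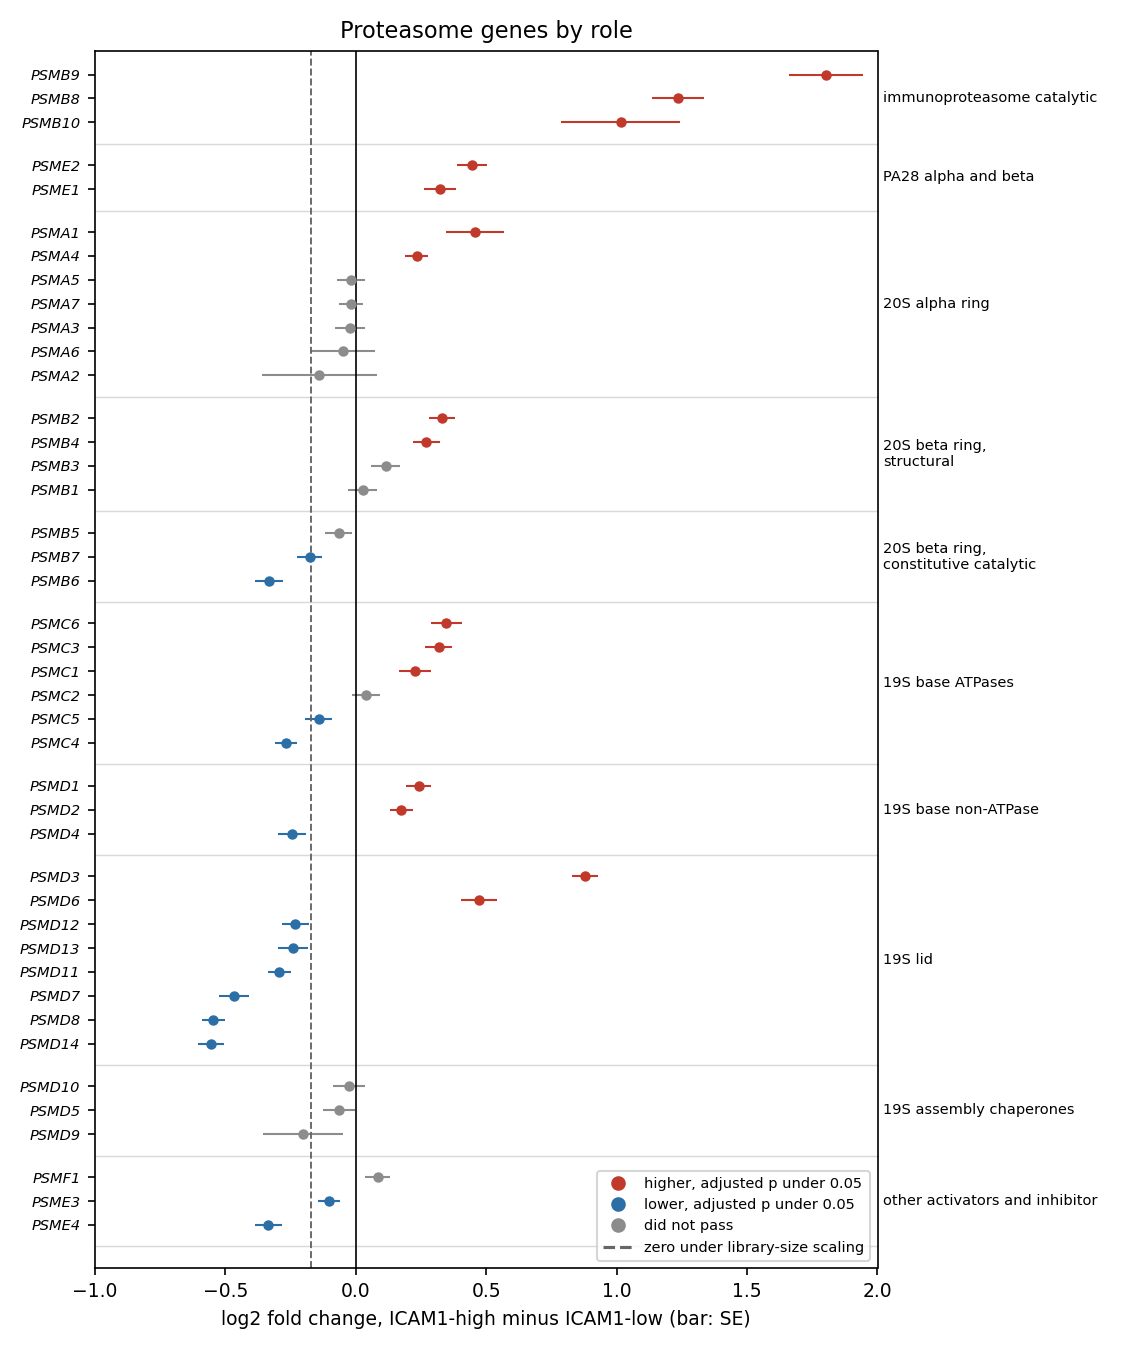
Log2 fold change (ICAM1-high minus ICAM1-low, horizontal axis) with its SE for the 42 members tested, grouped by role, in red where higher, blue where lower and grey where the test was not passed. The inducible genes lie at 0.32 to 1.80, and most others lie within 0.5 of zero. PSMB8, PSMB9 and PSMB10 lie to the right of all others, while PSME1 and PSME2 lie within the range of the other members. The lid spreads from -0.56 (PSMD14) to 0.88 (PSMD3). The dashed line shows where zero falls under library-size scaling.

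Of 7 alpha subunits tested, PSMA1 and PSMA4 rose, none fell and 5 did not pass. The share that rose was 28.6%, where 30.4% of all genes were higher and 29.4% lower. PSMA4 was at 262 and 242 CPM against 214 and 216 CPM, without overlap, or 0.23 in log2 (SE 0.05, adjusted p = 8.56e-06). PSMA1 was at 22.4 and 22.2 CPM against 13.7 and 18.9 CPM (0.46, SE 0.11, adjusted p = 3.51e-04), and without ICAM1-low replicate 1 it lost its call at 0.23 (adjusted p = 0.141), while without replicate 2 it was at 0.70. The log2 fold changes of PSMA2, PSMA3, PSMA5, PSMA6 and PSMA7 lay between -0.14 and -0.018. Under library-size scaling these 5 values turned positive and PSMA3, PSMA5 and PSMA7 were called higher. PSMA8, the alpha subunit of the testis, had 0 counts in all 4 libraries, which allows up to 0.161 to 0.195 CPM by a floor of 3 counts per library.

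Of the beta subunits without active sites, PSMB2 and PSMB4 rose, and PSMB1 (0.026) and PSMB3 (0.11, adjusted p = 0.068) did not pass. PSMB2 was at 152 and 151 CPM against 122 and 119 CPM, or 0.33 in log2 (SE 0.05, adjusted p = 5.91e-08). PSMB4, one of the members with an ISRE core in the sequences above, was at 149.6 and 153 CPM against 128 and 123 CPM, or 0.27 in log2 (SE 0.05, adjusted p = 4.59e-06). PSMB3 and PSMB1 were called higher under library-size scaling, at 0.29 and 0.20, and PSMB3 also with a minimum mean of 1 CPM (0.13). PSMB11, the catalytic subunit of the thymus, had 0 counts in every library, with the same floor as PSMA8.

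In the base of the 19S particle, ATPase subunits moved in both directions. PSMC6 (0.35), PSMC3 (0.32) and PSMC1 (0.23) rose, PSMC4 (-0.27) and PSMC5 (-0.14) fell, and PSMC2 was at 0.039 (adjusted p = 0.565), which library-size scaling turned into a call of higher (0.21). PSMC6 was at 97.2 and 89.5 CPM in ICAM1-high against 76.3 and 70.4 CPM in ICAM1-low, and PSMC3 at 135 and 145 CPM against 112.4 and 112.2 CPM. PSMC4 was at 273 and 257 CPM against 322 and 316 CPM, and PSMC5 at 119 and 119.9 CPM against 131 and 132 CPM. The libraries of these 4 genes did not overlap between subsets, which was not set against the share of all genes. The call of PSMC5 was lost without ICAM1-low replicate 1 (adjusted p = 0.0863) or 2 (0.111) and with DESeq2 (0.0583), and under library-size scaling its value was 0.031.

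The base also holds large subunits without ATPase activity. Of the 3 tested, 66.7% rose and 33.3% fell, beside 30.4% and 29.4% of all genes. PSMD1 and PSMD2, scaffold subunits, rose by 0.24 (SE 0.05, adjusted p = 1.95e-05) and 0.17 (SE 0.04, adjusted p = 4.91e-04). PSMD1 was at 187 and 173 CPM against 152 and 153 CPM, and PSMD2 at 277 and 280 CPM against 256 and 238 CPM. PSMD2 was no longer called without ICAM1-low replicate 2 (0.11, adjusted p = 0.176). PSMD4, a receptor for ubiquitin chains, was at 146 and 128 CPM against 159 and 166 CPM and fell by 0.24 (SE 0.05, adjusted p = 5.10e-05), a call lost under library-size scaling (-0.071). Without ICAM1-high replicate 2 its value was -0.16 and without replicate 1 it was -0.34, both called.

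The lid showed the widest spread, with 2 of its 8 genes rising, 6 falling and none missing the test. These shares, 25.0% and 75.0%, stand beside 30.4% higher and 29.4% lower among all genes. PSMD3 (ENSG00000108344, chromosome 17, 39980797 to 39997960), a structural lid subunit, was at 236 and 255 CPM in ICAM1-high against 141 and 126 CPM in ICAM1-low. Neither ICAM1-low library came near the ICAM1-high pair, and the log2 fold change of 0.88 (SE 0.05, adjusted p = 7.62e-24) was above that of every other member outside the inducible set. PSMD6, another structural subunit, was at 72.4 and 66.0 CPM against 46.9 and 52.9 CPM, or 0.47 in log2 (SE 0.07, adjusted p = 1.28e-08).

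PSMD14 (ENSG00000115233, chromosome 2, 161308038 to 161411717), the metalloprotease that cuts ubiquitin chains from substrates, was at 127 and 126 CPM in ICAM1-high against 189 and 184 CPM in ICAM1-low. It fell by 0.56 (SE 0.05, adjusted p = 4.07e-16), and the libraries of each subset lay close together. PSMD7, its partner in the lid, was at 81.7 and 80.4 CPM against 115 and 109 CPM and fell by 0.47 (SE 0.06, adjusted p = 6.09e-11). PSMD8 (ENSG00000099341, chromosome 19, 38374536 to 38383824), the last subunit to join the lid, was at 193 and 189.7 CPM against 284 and 276 CPM and fell by 0.55 (SE 0.04, adjusted p = 1.23e-17). The scaffold subunits PSMD11 (-0.29), PSMD13 (-0.24) and PSMD12 (-0.23) fell less. Under library-size scaling all 6 values stayed below zero, PSMD14 (-0.38), PSMD8 (-0.37), PSMD7 (-0.29) and PSMD11 (-0.12) remained called, and PSMD12 (-0.060) and PSMD13 (-0.067) did not.

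None of the 3 assembly chaperones of the base passed the test: PSMD5 was at -0.064 (adjusted p = 0.378), PSMD9 at -0.20 (adjusted p = 0.264) and PSMD10 at -0.027 (adjusted p = 0.729). PSMD5 was called lower without ICAM1-high replicate 1 (-0.14, adjusted p = 0.0430), and PSMD10 was called higher under library-size scaling (0.15, adjusted p = 0.0317). Of the other regulators, PSME4, which encodes the activator PA200, was at 119 and 123 CPM against 148 and 158 CPM and fell by 0.34 (SE 0.05, adjusted p = 4.73e-08). PSME3 was at 299 and 296 CPM against 325 and 314 CPM, or -0.10 in log2 (SE 0.04, adjusted p = 0.0318). Its call was lost without either ICAM1-low library (adjusted p = 0.298 and 0.0854), with a minimum mean of 1 CPM (0.0528) and with DESeq2 (0.0741), and library-size scaling gave 0.072. PSMF1, which encodes the inhibitor PI31, was at 0.084 (adjusted p = 0.133), and was called higher without ICAM1-high replicate 1 (0.12) and under library-size scaling (0.26).

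Subunits of one particle are needed in fixed proportion, yet their transcripts were not counted in proportion. Per kb of annotated exon, the mean level over both subsets ran from 0.760 CPM for PSMA2 to 138 CPM for PSMA7, both of the alpha ring. PSMA2, PSMD9, PSMA6, PSMB10 and PSMA1, at 0.760, 0.976, 1.99, 2.45 and 5.84 CPM per kb, are the 5 members tested for which the main gene sharing exons on the same strand is protein-coding, with 14.6%, 19.9%, 14.1%, 34.8% and 24.7% of their exon length shared on that strand. This grouping was made after the values were seen. Outside the inducible set, the 4 with such a partner had a median of 1.48 CPM per kb and the other 33 a median of 33.4, from 6.53 upward, so the ranges did not overlap. The overlapping genes were themselves low: that of PSMA1 had 0 to 1 counts per library, and that of PSMB10 26 to 49. How reads in shared exons were counted is not given in the sources used here, and its part in these levels was not tested. The level of PSMB10 and its ratio to PSMB7 may therefore be read only as counted. On the other strand, PSMC1 shares 75.8% of its exon length with NRDE2, at 438 and 366 counts in ICAM1-high against 271 and 273 in ICAM1-low. PSMC5 shares 19.5% with FTSJ3, at 2650 and 2554 counts against 1438 and 1435. PSMD7 shares 30.7% with an antisense gene that had 48 to 76 counts, and PSMB8 20.6% with PSMB8-AS1, which had 5 to 15 counts. Reads of such partners cannot be told apart without strand.

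**Figure D4:**
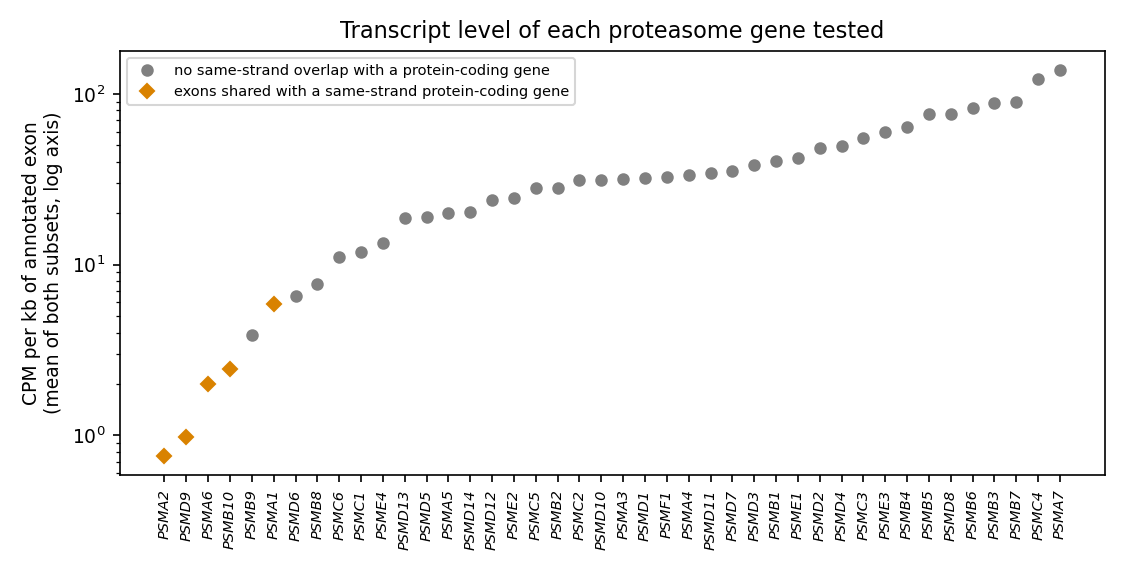
Mean level of each of the 42 members tested in CPM per kb of annotated exon (vertical log axis), in order from lowest to highest, with orange diamonds where the main same-strand overlap is with a protein-coding gene. The 5 diamonds lie among the lowest 6 members, together with PSMB9, while the alpha ring gene PSMA7 is the highest at 138.

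Pseudogenes, taken here by symbol, can also draw reads. The 42 with a member's symbol held 477 counts over all libraries, against 353353 for the members. Those of PSMA6 had 219 counts, 24.9% of the 881 of PSMA6 itself, and the next highest share was 2.08% for PSMC1.

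Genes that serve class I peptides act beside the inducible proteasome. In a list of 7 made for this comparison, 6 rose, none fell and ERAP1 (0.14, adjusted p = 0.0875) did not pass, with a median log2 fold change of 0.89, where 30.4% of all genes were higher, 29.4% lower and the median was 0.012. The list was made with results of these data known. B2M, which pairs with every class I heavy chain, rose by 1.24 (SE 0.04). TAPBP, which encodes tapasin, rose by 0.64 (SE 0.05), and TAP1 and TAP2, the peptide transporter genes on either side of PSMB8, by 0.68 (SE 0.07) and 0.89 (SE 0.10). ERAP2, a trimming peptidase, rose by 1.42 (SE 0.19) and TAPBPL by 1.13 (SE 0.19).

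Of 10 genes known to act in induction of the immunoproteasome, 9 were tested, of which 5 rose and 2 fell, with a median of 0.47. Those shares are 55.6% and 22.2%, where 30.4% of all genes were higher, 29.4% lower and the median was 0.012. NLRC5, the transactivator of class I genes, had a mean of 28.1 ± 0.293 CPM (SD, n = 2) against 7.36 ± 1.19 CPM (SD, n = 2) and rose by 1.93 (SE 0.12). STAT2 rose by 1.07, JAK2 by 0.52 and IRF1 by 0.47, whereas JAK1 fell by 0.66 and IFNGR2 by 0.25. IFNGR1 was at 0.013 and IRF9 at 0.45 (adjusted p = 0.175), and SOCS1 was too scarce to test.

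Genes that assemble and supply the proteasome did not move one way. Of 8 assembly and maturation factors, PAAF1, a chaperone of the base, rose by 0.81 (SE 0.11), AKIRIN2, which carries proteasomes into the nucleus, fell by 0.75 (SE 0.07), ECPAS, an adaptor that inhibits the proteasome, by 0.41 and PSMG3 by 0.22. POMP (-0.095), PSMG1 (0.14), PSMG2 (0.11) and PSMG4 (0.059) did not pass. In this list 12.5% rose and 37.5% fell, beside 30.4% and 29.4% of all genes. Of the 19S subunits named by other symbols, the ubiquitin receptor ADRM1 fell by 0.31 and SEM1 rose by 0.20.

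Of 13 shuttle factors and proteasome-bound enzymes, 3 rose and 6 fell, with a median of -0.10. Those shares are 23.1% and 46.2%, where 30.4% of all genes were higher, 29.4% lower and the median was 0.012. ZFAND5, which activates the 26S form, fell by 0.69 (SE 0.04) and the bound thioredoxin-like TXNL1 by 0.70 (SE 0.07). The ubiquitin carrier UBQLN1 fell by 0.45 and RAD23B by 0.44, but the related UBQLN2 rose by 0.81 (SE 0.07). NFE2L1, the factor that raises proteasome genes when degradation fails, was at 330 ± 4.96 CPM (n = 2) against 482 ± 5.29 CPM (n = 2) and fell by 0.55 (SE 0.04). Of the 6 genes of its activation, 2 rose (VCP by 0.45 and SYVN1 by 0.49) and 3 fell (NFE2L1, SEL1L by 0.43 and NGLY1 by 0.17).

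Markers of other cell types were set beside the inducible genes, since leukocytes express the immunoproteasome without induction. Of 14 leukocyte markers, PTPRC, CD3D, CD3E, CD2 and MS4A1 had 0 counts in all libraries, and 3 were tested (CD14, ITGB2 and LAPTM5), all of which rose. The summed level of the list was 22.9 to 24.0 CPM in ICAM1-high and 11.0 to 12.2 CPM in ICAM1-low. Most of it was CD14, at 18.4 and 18.6 CPM against 9.33 and 9.51 CPM. Beside this list and each one below, 30.4% of all genes tested were higher and 29.4% lower. Of 14 fibroblast markers, 8 were tested, of which 6 rose and none fell, at summed levels of 303 to 311 and 222 to 243 CPM, most of it S100A4. POSTN was at 0, and COL1A2 and DCN had at most 2 counts per library. COL1A1, the collagen I alpha chain, rose by 2.81 (SE 0.13), from 60 and 66 counts in ICAM1-low to 505 and 551 in ICAM1-high. LUM had 43 and 56 counts in ICAM1-high against 3 and 5, and FAP 17 and 25 against 0 and 1. The endothelial list of 14 had 6 tested, 4 higher and 1 lower, at 52.1 to 56.9 and 37.0 to 40.3 CPM, with FLT1 at 0. ERG, an endothelial transcription factor, had 37 and 52 counts in ICAM1-high and 0 in both ICAM1-low libraries, and CDH5, the endothelial cadherin, had 37 and 27 against 0 and 1. ENG rose by 2.29 (SE 0.16) and PECAM1 by 2.09 (SE 0.33), while ESAM fell by 0.58 (SE 0.22). In these lists 1, 5 and 3 of the tested markers were under 1 CPM in ICAM1-low, so some were tested only through ICAM1-high. Of 6 genes abundant in A549 or epithelium, KRT8, KRT18 and KRT19 rose and ALDH1A1, AKR1B10 and EPCAM fell. The part of these markers in the proteasome differences was not tested.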

How the data were processed

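The authors deposited whole-number raw counts per gene, with a column for each library, which was tied to a sample through the label's description. FastQC 0.10.1 and GRCh38 are named per the submitters' processing notes. The sources used here do not give the aligner, counter, strand setting or rule for shared reads. Positions, gene types and exon lengths (union of annotated exons) came from GENCODE release 29, which holds all 58735 identifiers; 58207 had a symbol.

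All genes were fitted together with edgeR 4.0.16 in R 4.3.3 (robust quasi-likelihood, TMM factors of 0.939 to 1.07, filterByExpr at a count of 10 and a total of 15), after the script had been tested on simulated data. The SE is the fold change over the square root of the test statistic. Floors cover counting error only.

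The members, roles and gene lists were chosen with earlier results of these data known, so no list has a test of its own. Every member is named. Library values are given for the inducible genes, their partners, the tissue-restricted members and up to 2 called genes per direction and role, and PSMD7 was added after its values were seen. Other lists name up to 4 genes by adjusted p, plus further genes picked after their values were seen. Some genes of these lists are not reported here. Promoter motifs, exon overlap, pseudogenes and neighbouring genes were also added then. Alternatives tried were DESeq2 size factors, unscaled library size, an unfiltered table, a minimum mean of 1 CPM, DESeq2 1.42.0, limma-voom (limma 3.58.1), a replicate block, leaving out ribosomal protein and mitochondrial genes, stricter thresholds, and leaving out each library.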

Additional observations from a re-analysis of the deposited data

How the results depend on the processing

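The count of 5 inducible genes called higher was 5 under every alternative except a threshold of at least 1.5-fold, which left 3. Of the other members, 11 rose and 13 fell, and at least 1.5-fold gave 1 and 0. Scaling by library size alone gave 19 and 7, where it called 6735 of all 16250 genes higher and 3124 lower. Leaving out each library gave 10 to 12 higher and 11 to 14 lower. With DESeq2 11 rose and 11 fell. With the replicate number as a block the counts were 11 and 13, and 42 of 42 members kept their side of the threshold. Deviations of same-numbered libraries from their subset mean correlated with r = 0.0445 across genes. Counting noise also lowers this value, so it shows no pairing but cannot exclude it.

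Scaling by library size alone changed the sign of 10 members: PSMA5 (0.16), PSMA2 (0.033), PSMD10 (0.15), PSMD5 (0.11), PSMB5 (0.11), PSMA6 (0.12), PSMA3 (0.15), PSME3 (0.072), PSMC5 (0.031) and PSMA7 (0.15). This follows from its construction, which shifts all genes upward by 0.17. Leaving out single libraries changed the sign of 6 members that were not called, over ranges of -0.025 to 0.086 for PSMC2, -0.11 to 0.043 for PSMD10, -0.15 to 0.0085 for PSMD5, -0.15 to 0.0023 for PSMB5, -0.12 to 0.056 for PSMA3 and -0.079 to 0.029 for PSMA7. With 2 libraries per subset, a member that did not pass may still differ.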

Other observations

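Of the 44 members, 8 lie on chromosome 14 and 7 on chromosome 17. On chromosome 14, PSME1, PSME2, PSMC1 and PSMC6 rose while PSMA3, PSMA6 and PSMB5 did not pass and PSMB11, with 0 counts, was not tested. On chromosome 17, PSMD3 rose, PSMB3 did not pass, and PSMB6, PSMC5, PSMD11, PSMD12 and PSME3 fell. Library-size scaling removed the calls of PSMC5, PSMD12 and PSME3. Shares by chromosome were not counted, and over all chromosomes 30.4% of genes tested were higher and 29.4% lower.

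The tested protein-coding genes nearest to some members were looked up after the members' values were seen. Among them HLA-DOB and CSF3 were scarce in ICAM1-low and were tested only through ICAM1-high. Beside PSMB8 and PSMB9 on chromosome 6, TAP1 and TAP2 rose, HLA-DOB rose by 2.51 (SE 0.61) from a mean of 0.193 to 1.13 CPM, HLA-DMB fell by 0.51 (SE 0.17, adjusted p = 0.00897) and HLA-DMA was at -0.11 (adjusted p = 0.692). Between PSME1 and PSME2 on chromosome 14 lies EMC9, which fell by 0.34 (SE 0.10). On the other side of PSME1, PCK2 fell by 2.46 (SE 0.06) and DCAF11 was at -0.16 (adjusted p = 0.0717). RNF31, a subunit of the linear ubiquitin ligase whose exons overlap those of PSME2 on the opposite strand, rose by 0.87 (SE 0.11). Beside PSMD3 on chromosome 17, the cytokine gene CSF3 rose by 3.91 (SE 0.29), from a mean of 0.547 to 8.33 CPM, ORMDL3 by 0.35 (SE 0.09) and the next gene, GSDMB, by 1.12 (SE 0.19), while MED24 was at 0.046 (adjusted p = 0.508).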
